A study of Mus musculus with 4 samples.

Results

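The 9 genes described here encode the transcription factors that switch on fat synthesis from sugar and sterol signals, together with a pair of their direct responders. They are Mlxipl (ChREBP), Mlxip (MondoA) and Mlx, Srebf1 and Srebf2 (the SREBPs), Nr1h3 and Nr1h2 (LXR alpha and LXR beta), Thrsp and Txnip. They were taken as a named list, by symbol, from the 22298 genes of the count table, and all 9 were found and passed the filter on low counts. RNA-seq was performed on brown adipose tissue (BAT) of C57BL/6 fetuses (C57BL/6J in the study's methods) at E18.5, the end of gestation. During gestation the control dams drank tap water, and the dams of the fructose group were given fructose at 20% (w/v) in their water. Each group had 2 libraries, and all 4 are labelled male. The number of fetuses or litters behind a library is not given in the sources used here, so a p-value measures only the spread between these libraries. The strain was the same in both groups.

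ChREBP and MondoA are glucose-sensing factors that bind DNA as heterodimers with MLX. ChREBP leads the response of liver and adipose tissue to sugar, including fructose, and turns on the enzymes of glycolysis and fatty acid synthesis. The SREBPs are held in the endoplasmic reticulum by SCAP and INSIG proteins and are cut free when sterols are low or insulin is high. SREBP1 mainly drives fatty acid genes and SREBP2 cholesterol genes. The LXRs are oxysterol receptors that pair with RXR, raise sterol efflux and also drive Srebf1 transcription. In brown fat, fatty acid synthesis supplies the lipid droplets that fuel heat production.

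Mlxipl is transcribed from separate start sites, and the count table has 1 value for the whole gene. RefSeq (GRCm38.p6) lists its starts at positions 135089890 and 135106891 of chromosome 5, which lie 17001 bases apart on the plus strand. The longer protein, ChREBP alpha, is made from the downstream start, and the shorter and constitutively active ChREBP beta from the upstream one. The study lists primer pairs for the whole gene and for each form. They are printed here because they show which part of the gene tells the forms apart. Capitals mark the whole forward primer where it lies in a first exon of its own, and, in the pair for the whole gene, the bases beyond an exon junction.
Chrebpb forward: TCTGCAGATCGCGTGGAG
Chrebpb reverse: cttgtcccggcatagcaac
Chrebpa forward: ATCCGACACTCACCCACCTCTT
Chrebpa reverse: gctctccagatggcgttgttca
Chrebp forward: gctcaacgctgccatcaaCTTG
Chrebp reverse: GGTCGGATGAGGATGCTGAAca
Of the 10 Mlxipl transcripts in GENCODE M21, 1 (Mlxipl-210) held both Chrebpb primers, 7 held both Chrebpa primers and 6 held both Chrebp primers. The Chrebpb and Chrebpa reverse primers lie in the same second exon, so these pairs are told apart by their forward primers, and the level of Mlxipl given here is that of both forms together.

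**Figure D1:**
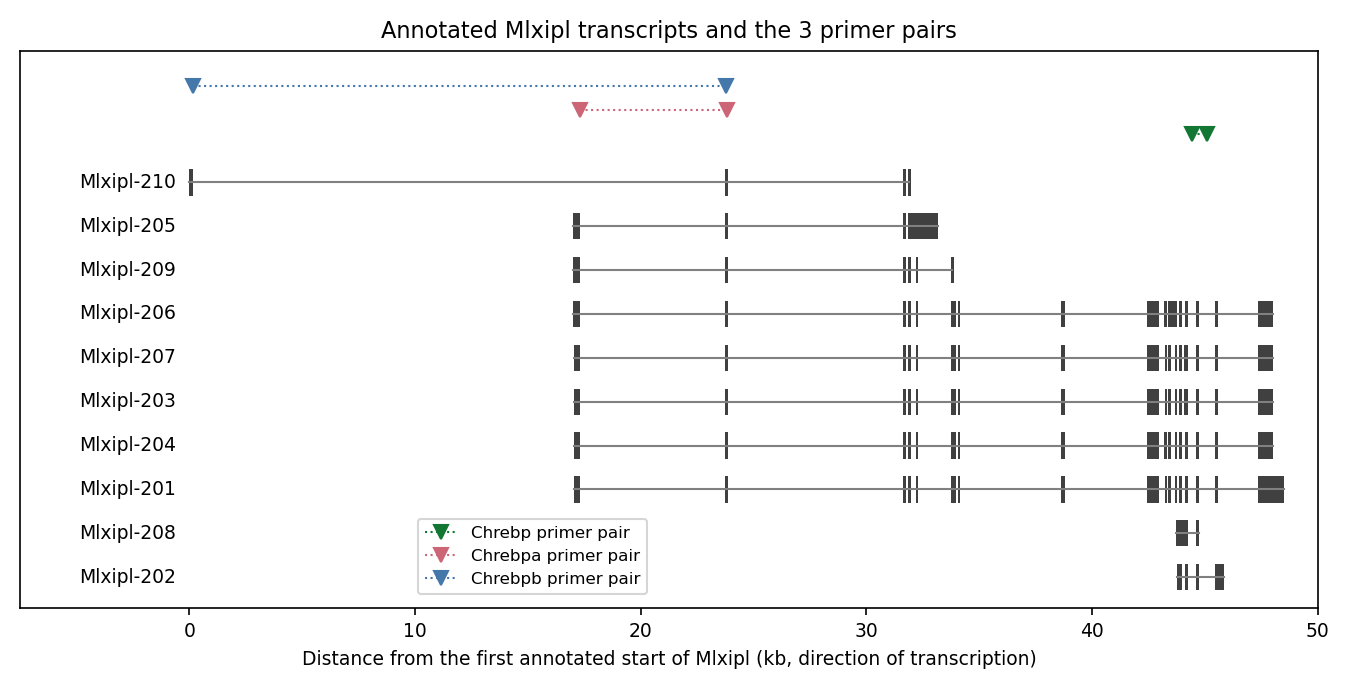
Exons (boxes) of the 10 annotated Mlxipl transcripts against distance from the first start in kb, with the primers of the 3 pairs as triangles. The Chrebpb forward primer lies in the upstream first exon, held by Mlxipl-210 alone, and the Chrebpa forward primer about 17 kb downstream.

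Promoter windows of 250 bases before to 50 bases after each start (RefSeq, GRCm38.p6) were found for all 9 genes. Each was searched on both strands for an E-box (CACGTG), for a ChREBP-like site (CACGNG, 5 bases of any kind, CACGNG), for a sterol element (TCACNCCAC), for 2 copies of AGGTCA 4 bases apart, and for CCAAT. The matches that bear on sugar or sterol factors are printed with 12 bases on either side, 5′ to 3′ on the strand of the gene, with the match in capitals.
Txnip ChREBP-like site: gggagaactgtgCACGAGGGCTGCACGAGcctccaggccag
Mlxipl upstream start, E-box: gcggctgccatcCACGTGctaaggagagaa
Mlx E-box: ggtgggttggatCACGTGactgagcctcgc
Mlxipl downstream start, sterol element: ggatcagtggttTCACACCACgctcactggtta
Coordinates are those of the whole printed stretch, and positions, counted from the start, are those of the capitals. The Txnip stretch spans chr3:96557860-96557900, with the match at positions -85 to -69. The Mlxipl E-box stretch spans chr5:135089780-135089809 (match at -98 to -93), the Mlx stretch chr11:101087238-101087267 (match at -40 to -35), and the stretch with the Mlxipl sterol element chr5:135106743-135106775 (match at -136 to -128). Of 32851 windows searched over all genes, the ChREBP-like letters stood in 16 (0.0487%), the E-box in 7.15%, the sterol element in 1.24% and CCAAT in 37.4%. The spaced AGGTCA pair stood in 5 windows, none of them of these genes. CCAAT stood in a window of Mlxipl, Mlxip, Mlx, Srebf1, Srebf2, Thrsp and Txnip. A match is a description of the letters and not a binding site.

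The fructose libraries went against their label. Over Eif2s3y, Ddx3y, Kdm5d and Uty, which lie on the Y chromosome, counts summed to 422 and 390 counts in the control libraries and to 0 in both fructose libraries, so sex and fructose cannot be told apart here, and no result can be given without the libraries concerned. Total counts were 18542897 to 19224529 in control and 22461298 to 23645147 in fructose. Mitochondrially encoded genes held 5.89% to 6.49% of them in control and 10.8% to 11.2% in fructose. Skeletal muscle markers summed to 299.6 to 387 CPM (counts scaled to the total of each library, after TMM normalization) in control and 640.4 to 868 CPM in fructose, with 13 of 14 tested called higher. Erythroid markers summed to 15294 to 19205 and 11767 to 12142 CPM, with 5 of 8 called lower. With trends in gene length and GC content removed, 13 muscle markers were still called higher and 0 erythroid markers lower. Over all tested genes 15.5% were called higher and 10.7% lower, and 5.43% and 6.62% with these trends removed. Brown adipocyte markers, which fit the labelled tissue, summed to 14525 to 17175 and 14058 to 15605 CPM (3 called higher and 2 lower of 10), and pan-adipocyte markers to 11996 to 12981 and 11269 to 11562 CPM (1 and 3 of 8). Among macrophage markers 1 was called higher and 2 lower of 8, among endothelial markers 1 lower of 7 and among fibroblast markers 1 higher of 8. These lists are too short to set such counts apart from the shares over all genes. No tested Schwann cell (6) or epidermal (1) marker was called, and 7 of 10 hepatocyte markers, including Afp and Ttr, had 0 counts in every library, with a list sum of at most 1.02 CPM. Across 12884 genes the log2 fold change rose with exon length (Spearman's rho 0.46) and fell with GC content (rho -0.50), which describes genes and not replicates. Values with both trends removed are therefore given beside the results. The part of each of these differences in the results was not tested.

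The fructose libraries of fetal BAT had a higher level of Mlxipl and lower levels of Srebf1, Nr1h3 and Nr1h2 than control. As they also lacked Y-linked counts, sex and maternal fructose cannot be told apart in these differences. A gene was called where the quasi-likelihood test of edgeR, adjusted over 12888 genes, gave a p-value under 0.05. Thus 1 of the 9 regulators was called higher, where 15.5% of all tested genes were, and 3 were called lower, where 10.7% of all tested genes were. In either direction 26.2% of all genes were called, and 9 genes are too few to set a count of 4 apart from that share. Scaling by library size only left the calls of the 9 genes as they were, while the split over all genes moved from 2001 higher and 1379 lower to 2242 and 859. With the call rule of the study's methods (unadjusted p-value under 0.05 and fold change above 1.3), Mlxipl was higher and Srebf1 and Nr1h2 were lower, beside 17.6% and 6.18% of all genes. With the length and GC trends removed, the calls left were Mlxipl higher and Srebf1 lower, beside 5.43% and 6.62% of all genes. The groups did not overlap for 6 of the 9 regulators, 2 with fructose above control and 4 below. The same held for 65.1% of all genes (33.4% above and 31.6% below). Among the 4 below, Mlx was apart only by 51.025 CPM in fructose library 1 against 51.031 CPM in control library 1. The median log2 fold change was -0.18 over the 9 regulators and 0.0025 over all genes. In whole tissue, fewer cells of a type and less RNA per cell cannot be told apart.

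**Figure D2:**
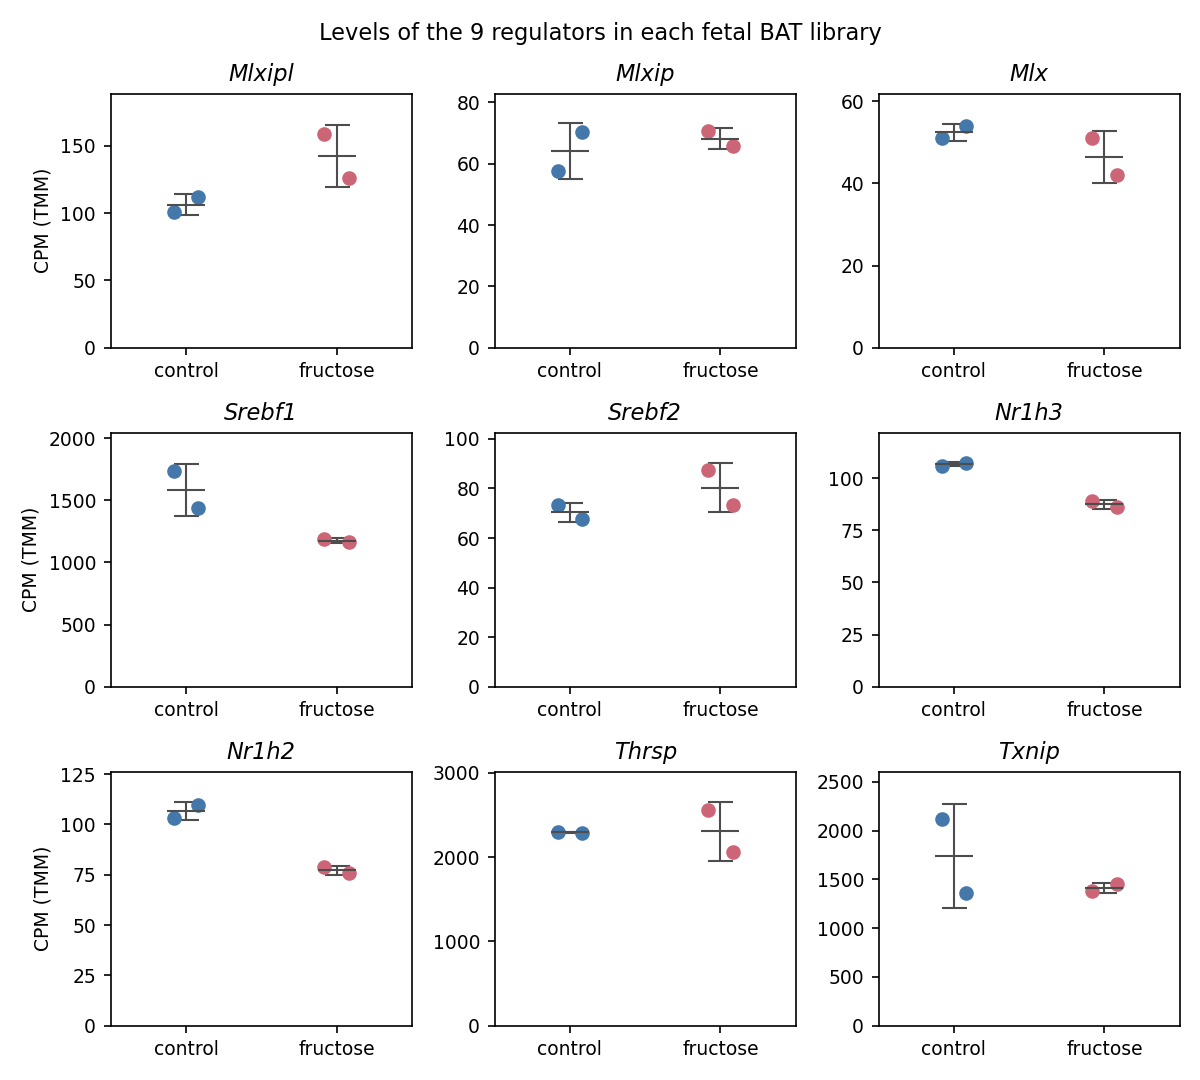
CPM (TMM-normalized, from 0) of each regulator in the 2 control and 2 fructose libraries as points, with the group mean and SD as bars. Nr1h3 and Nr1h2 sit below both control libraries in both fructose libraries, while control library 1 stands alone at 2116 CPM for Txnip.

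Mlxipl (ENSMUSG00000005373, chromosome 5, 135089890 to 135138382, plus strand) was at 100.5 and 112 CPM in the control libraries and 158 and 126 CPM in the fructose libraries. Both fructose libraries lay above both control libraries, and fructose library 1 was the higher one. The group levels were 106 ± 7.88 and 142 ± 23.0 CPM (SD, n = 2 libraries each). Mlxipl was 1.34-fold higher (95% interval 1.14 to 1.58), or 0.42 on the log2 scale (standard error 0.11, adjusted p = 0.015 in edgeR). Removing both trends gave 0.48 (adjusted p = 0.012). The size of the change rested on fructose library 1, since without it the log2 fold change was 0.25 and was not called (edgeR adjusted p = 0.16). The call was also lost with the length trend removed and the replicate block (0.34, edgeR adjusted p = 0.057).
Mlxip (ENSMUSG00000038342, chromosome 5, 123394798 to 123457932, plus strand) encodes the relative of ChREBP that leads glucose sensing in muscle. It was at 57.7 and 70.5 CPM in control and 70.5 and 65.7 CPM in fructose. The groups overlapped, and the fold of 1.06 (95% interval 0.911 to 1.24, edgeR adjusted p = 0.56) was not called. Its sign turned with the length trend removed, to a log2 fold change of -0.14.
Mlx (ENSMUSG00000017801, chromosome 11, 101087277 to 101092207, plus strand), the partner that both factors need to bind DNA, was at 51.031 and 54.0 CPM in control and 51.025 and 41.97 CPM in fructose. The groups were only just apart, with control library 1 and fructose library 1 almost level. The fold of 0.885 (95% interval 0.756 to 1.04, edgeR adjusted p = 0.23) was not called. An exon of Psmc3ip, which had 221 counts over the 4 libraries, overlaps Mlx on the other strand. How the counting treated strands is not given in the sources used here. Exons of Mlxipl, Mlxip and Txnip also overlap antisense genes (Gm43500, Gm15747 and Gm15441). Those of Nr1h3 and Srebf1 overlap genes on the same strand (Gm13783 and Mir6922). None of these overlapping genes is listed among the counts, so reads from them were not told apart.
Per kb of exon length, Mlxipl stood above Mlxip in every library, by 2.62 and 2.38 times in control and by 3.38 and 2.88 times in fructose. Both fructose ratios exceeded both control ratios. With 2 libraries against 2 an exact permutation test cannot give a two-sided p below 0.333, so none is given for such ratios.

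Srebf1 (ENSMUSG00000020538, chromosome 11, 60199089 to 60222581, minus strand) was at 1733 and 1437 CPM in control and at 1189.5 and 1163 CPM in fructose. Both fructose libraries lay below both control libraries and were nearly level with each other, while the control libraries lay further apart. The group levels were 1585 ± 209.8 and 1176 ± 18.52 CPM (SD, n = 2 libraries each). The log2 fold change was -0.43 (standard error 0.10, 95% interval -0.65 to -0.21, edgeR adjusted p = 0.010), which left 74.2% of the control level. It was -0.36 with both trends removed (adjusted p = 0.043), and lost its call only with the GC trend alone removed (-0.24, adjusted p = 0.12), also with the replicate block (adjusted p = 0.16). RefSeq lists 3 starts for Srebf1, so its values pool the forms made from them, and Rai1 overlaps one of its exons on the other strand with 2993 counts in all.
Srebf2 (ENSMUSG00000022463, chromosome 15, 82147181 to 82205379, plus strand), the cholesterol regulator whose intron holds Mir33, was at 73.1 and 67.6 CPM in control and 87.5 and 73.3 CPM in fructose. Fructose library 2 exceeded control library 1 by only a little. The fold of 1.14 (95% interval 0.984 to 1.32, edgeR adjusted p = 0.17) was not called. It was called with the GC trend alone removed (log2 fold change 0.37, edgeR adjusted p = 0.021). It was not called with the length trend alone removed (0.022, adjusted p = 0.91) or with both removed (0.17, adjusted p = 0.30).
Per kb, Srebf1 stood 30.2 and 27.1 times above Srebf2 in the control libraries and 17.3 and 20.2 times in the fructose libraries. The ratio was lower in both fructose libraries, from a mean of 28.6 ± 2.22 to 18.8 ± 2.05 (SD, n = 2 libraries each).

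Nr1h2 (ENSMUSG00000060601, chromosome 7, 44549616 to 44553951, minus strand), the widely expressed LXR, was at 103 and 109.6 CPM in control and at 78.7 and 75.6 CPM in fructose. All values of a group lay close together, and the gap between the groups was wider than the spread within either. The log2 fold change was -0.46 (standard error 0.08, 95% interval -0.64 to -0.29, edgeR adjusted p = 0.0023), or 72.5% of the control level. Its call was lost with the GC trend removed (-0.25, adjusted p = 0.060) and with both trends removed (-0.23, adjusted p = 0.086).
Nr1h3 (ENSMUSG00000002108, chromosome 2, 91184061 to 91202834, minus strand), the LXR of liver, fat and macrophages, was at 106 and 107 CPM in control and 89.0 and 85.9 CPM in fructose. Again both fructose libraries were lower. The log2 fold change was -0.29 (standard error 0.08, 95% interval -0.46 to -0.11, edgeR adjusted p = 0.020), or 82.0% of the control level. It was -0.021 with both trends removed (adjusted p = 0.90), and it also lost its call without fructose library 1 (-0.31, edgeR adjusted p = 0.080) and without fructose library 2 (-0.26, adjusted p = 0.17).
The ratio of Nr1h3 to Nr1h2 per kb was 1.37 and 1.31 in control and 1.51 and 1.52 in fructose. Thus the balance of the LXR forms lay nearer to Nr1h3 in both fructose libraries than in control. The size of the ratio, unlike this order of the libraries, depends on the length used for each gene.

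Thrsp (ENSMUSG00000035686, chromosome 7, 97412938 to 97417730, minus strand), also called Spot 14, encodes a small nuclear protein that rises with sugar and thyroid hormone and promotes fatty acid synthesis. It had the highest level per kb of the 9 genes, and was at 2298 and 2288 CPM in control and 2555 and 2058 CPM in fructose. The control libraries lay between the fructose libraries. The fold was 1.01 (95% interval 0.854 to 1.18, edgeR adjusted p = 0.96), so that in this fit a change of more than 1.18-fold up lies outside the interval. Removing both trends moved the log2 fold change to 0.24 (95% interval 0.011 to 0.47), still not called (adjusted p = 0.17), so the bound above does not hold there.
Txnip (ENSMUSG00000038393, chromosome 3, 96557957 to 96561883, plus strand), an arrestin relative that binds thioredoxin and lowers glucose uptake, is a standard readout of ChREBP and MondoA. It was at 2116 and 1358 CPM in control and 1377 and 1450.4 CPM in fructose. Control library 1 stood apart, and control library 2 lay just below both fructose libraries. The log2 fold change was -0.30 (standard error 0.16, 95% interval -0.64 to 0.045, edgeR adjusted p = 0.18) and was not called. Without control library 1 it was 0.054 (adjusted p = 0.71), and without control library 2 it was -0.58 and called (adjusted p = 4.7e-09), so either direction rested on 1 control library.

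**Figure D3:**
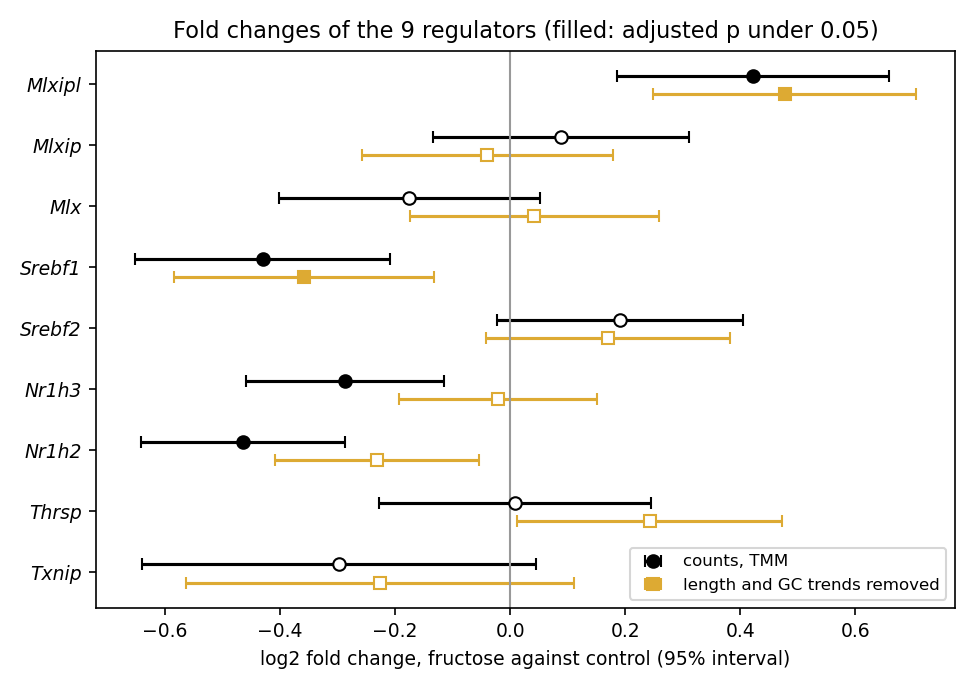
Log2 fold change, fructose against control, of each regulator with its 95% interval, from edgeR on the counts (circles) and with the length and GC trends removed (squares), filled where the adjusted p-value was under 0.05. Mlxipl (0.42 and 0.48) and Srebf1 (-0.43 and -0.36) are filled in both, Nr1h3 and Nr1h2 in the first only.

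The order of the levels per kb of exon length was led by Thrsp, Txnip and Srebf1 in both groups. In control, these were at 1048 ± 3.21, 556 ± 171 and 281 ± 37.2 CPM per kb (SD, n = 2 libraries each). Nr1h3 followed at 42.4 ± 0.405, then Nr1h2 (31.7 ± 1.33), Mlx (26.3 ± 1.03), Mlxipl (19.1 ± 1.42), Srebf2 (9.80 ± 0.541) and Mlxip (7.70 ± 1.08 CPM per kb). With this length, no neighbours in the order overlapped over the control libraries. In fructose, Mlxipl moved from rank 7 to rank 5, at 25.7 ± 4.16 CPM per kb, ahead of Mlx (23.3 ± 3.20) and Nr1h2 (23.0 ± 0.653). These 3 were the ones whose neighbours overlapped over the fructose libraries, so their order is not separated by the spread. Thrsp (1054 ± 160), Txnip (453 ± 16.7), Srebf1 (209 ± 3.29), Nr1h3 (34.8 ± 0.852), Srebf2 (11.2 ± 1.40) and Mlxip (8.18 ± 0.408 CPM per kb) kept their ranks. With the longest transcript as the length, Mlx exchanged ranks with Mlxipl in control and with Nr1h2 in fructose. Nr1h3 and Nr1h2 were then almost level in control, at 53.7 and 53.3 CPM per kb, so their gap there rests on the length used.

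Lists of the partners and targets of these regulators were then counted. The skeletal muscle markers and the mitochondrial share given above were higher, and the erythroid markers lower, in the same libraries. Among fatty acid genes known as SREBP1 targets, all 15 had a log2 fold change above 0 and 12 were called higher, with a median of 0.59, where 15.5% of all tested genes were called higher. This lay beside a Srebf1 level that was called lower. Scd1, the desaturase that makes oleate, was at 6361 and 3747 CPM in control and 11994 and 9089.5 CPM in fructose (log2 fold change 1.06, edgeR adjusted p = 0.0036). Scd2, its close relative, was at 1304 and 933 CPM in control and 2117 and 1589.8 CPM in fructose (0.73, adjusted p = 0.0065). Fasn, the fatty acid synthase (0.58, adjusted p = 0.038), and Acly, which supplies acetyl-CoA (0.59, adjusted p = 0.013), were also called higher. With both trends removed 6 of the 15 were called higher, beside 5.43% of all genes, among them Scd1 (0.98), Scd2 (0.67) and Acly (0.61) and not Fasn (0.40, adjusted p = 0.19), and without fructose library 1 the count was 7. DESeq2 called 7 of the 15, and none of these 4 named genes (DESeq2 adjusted p = 0.062 for Scd1, 0.089 for Scd2, 0.33 for Fasn and 0.15 for Acly).
Of 15 tested ChREBP targets, which share Fasn, Acaca, Acly, Elovl6, Scd1, Me1 and Pnpla3 with the list before, 8 were called higher and 0 lower, with a median of 0.51, beside 15.5% and 10.7% of all genes. Acaca, acetyl-CoA carboxylase, was at 571 and 582 CPM in control and 949.5 and 696 CPM in fructose (0.51, edgeR adjusted p = 0.011), and at 0.0033 with both trends removed. The count was 5 with both trends removed, 4 by DESeq2 and 4 without fructose library 1. With both trends removed 5.43% of all genes were called higher. Klf10 was the only called gene of this list outside the shared 7. Arrdc4, the arrestin relative of Txnip that is read out beside it, had a log2 fold change of 0.023 and was not called.
Of 24 cholesterol genes known as SREBP2 targets, 10 were called higher and 0 lower, with a median of 0.32, beside 15.5% and 10.7% of all genes. Hmgcs1, an early enzyme of the pathway, was at 149 and 134 CPM in control and 216 and 199 CPM in fructose (0.55, edgeR adjusted p = 0.0015). Nsdhl (0.41, edgeR adjusted p = 0.010), which lies on the X chromosome, and Lss (0.51, adjusted p = 0.0037), later enzymes of the pathway, were called as well. With both trends removed 7 of the 24 were called higher, beside 5.43% of all genes, including Hmgcs1 (0.32) and Nsdhl (0.43) and not Lss (0.18, adjusted p = 0.30). The count was 6 with the GC trend alone removed and 6 without fructose library 1.

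Of 11 tested LXR targets, 3 were called higher and 1 lower, with a median of -0.0056, beside 15.5% and 10.7% of all genes, so that the lower count is near the background. Abca1, which exports cholesterol to apolipoprotein A-I, was at 29.7 and 26.4 CPM in control and 68.8 and 80.4 CPM in fructose (log2 fold change 1.41, edgeR adjusted p = 2.9e-05), and at 1.06 with both trends removed (adjusted p = 0.00011). Abcg1, its companion in sterol export, moved the other way, from 41.7 and 42.4 CPM to 31.3 and 34.7 CPM (-0.35, adjusted p = 0.020), and stayed called with both trends removed (-0.43). Its call was lost with library size only, with the GC trend alone removed, with or without the replicate block, and without fructose library 1. Lpl, lipoprotein lipase, was at 534 and 459 CPM in control and 797 and 875 CPM in fructose (0.75, adjusted p = 0.00054), and was not called with both trends removed (0.24, adjusted p = 0.095). Abcg5, Abcg8 and Cyp7a1, which mark liver and gut, had 0 counts in every library. The other called gene, Scd1, was shared with the SREBP1 and ChREBP lists and was not called by DESeq2. With 11 genes tested, this list is too short to set its counts, higher or lower, apart from the shares over all genes.
Among 16 tested LXR partners and coregulators, 10 were called higher and 3 lower, with a median of 0.40, beside 15.5% and 10.7% of all genes. The receptor partners Rxrb (-0.34, edgeR adjusted p = 0.012) and Rxrg (-0.34, adjusted p = 0.011) and the deacetylase Hdac3 (-0.29, adjusted p = 0.021) were the lower ones, and the corepressor Ncor1 was at 49.8 and 54.3 CPM in control and 69.2 and 74.0 CPM in fructose (0.46, adjusted p = 0.0036). With both trends removed the list had 1 gene called higher and 1 lower, beside 5.43% and 6.62% of all genes, with a median of 0.046. The lower gene was Hdac3 (-0.33, adjusted p = 0.024), while Rxrb (-0.15, adjusted p = 0.28), Rxrg (-0.085, adjusted p = 0.56) and Ncor1 (0.047, adjusted p = 0.79) were not called. The higher count was 6 by DESeq2, 6 without fructose library 1 and 5 without fructose library 2, where 1 and 0 were called lower.

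Of 11 genes for SREBP escort, cleavage and degradation, 3 were called higher and 1 lower, with a median of 0.067, beside 15.5% and 10.7% of all genes. DESeq2 called 0 of the 11 higher. Insig1, which retains SREBP in the endoplasmic reticulum and is itself an SREBP target, was at 189 and 126 CPM in control and 268 and 227 CPM in fructose (0.65, edgeR adjusted p = 0.0094), and at 0.72 with both trends removed (adjusted p = 0.0086), and was not called by DESeq2 (adjusted p = 0.13). Scap, the escort protein, was at 88.0 and 94.5 CPM in control and 72.9 and 75.0 CPM in fructose (-0.30, adjusted p = 0.019), and at -0.32 with both trends removed (adjusted p = 0.024). Its call was lost with the GC trend alone removed and without control library 2, fructose library 1 or fructose library 2. Mbtps2, the second protease of SREBP cleavage, lies on the X chromosome. It was called higher (0.81, edgeR adjusted p = 0.019) but not with both trends removed (0.12). Fbxw7, which marks nuclear SREBP for degradation, lay at the threshold (0.73, adjusted p = 0.050). Over all genes, 5.43% were called higher and 6.62% lower with both trends removed. With both trends removed 1 gene of this list was called higher and 3 lower, and without fructose library 2 the higher count was 1.
Of 9 tested MLX and MAX network partners, 1 was called higher and 1 lower, with a median of -0.21, and 15.5% and 10.7% of all genes were, so that both counts are near the background. Myc fell from 15.2 and 12.03 CPM to 8.36 and 9.02 CPM (-0.65, edgeR adjusted p = 0.012), and Mga, a large MAX partner, rose from 5.38 and 6.76 CPM to 11.8 and 12.9 CPM (1.02, adjusted p = 0.0017). Neither was called with both trends removed (-0.44 and 0.27). There 0 genes of the list were called higher and 2 others lower, beside 5.43% and 6.62% of all genes. Myc also lost its call without fructose library 1.
Of 9 tested relatives and partners of TXNIP and THRSP, 0 were called higher and 3 lower, with a median of -0.072, beside 15.5% and 10.7% of all genes. The lower genes were Txn1, the cytosolic thioredoxin that TXNIP binds (-0.34, edgeR adjusted p = 0.017), the mitochondrial thioredoxin Txn2 (-0.27, adjusted p = 0.048) and its reductase Txnrd2 (-0.40, adjusted p = 0.0049). Txnrd2 alone stayed called with both trends removed (-0.30, adjusted p = 0.031), and 0 of the list were called lower without fructose library 2. Over all genes, 6.62% were called lower with both trends removed. Mid1ip1, the relative of Thrsp, had a log2 fold change of 0.063 and was not called.

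**Figure D4:**
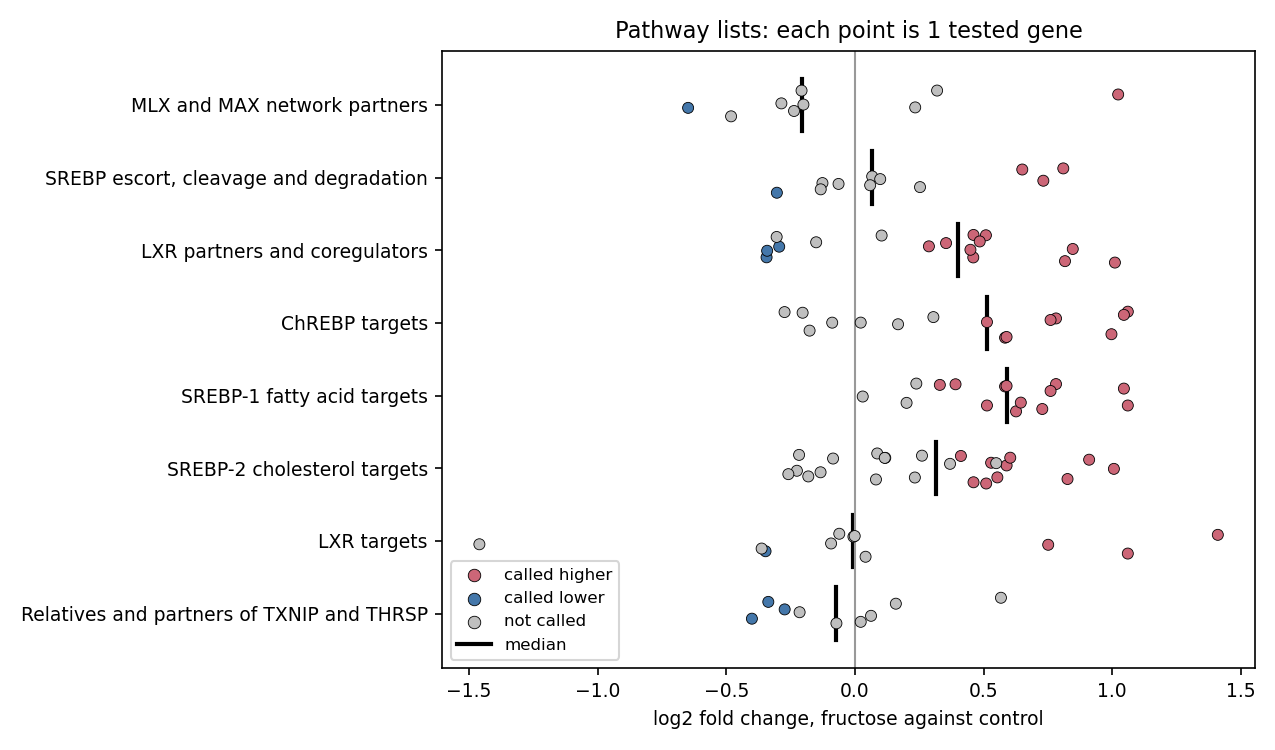
Log2 fold change, fructose against control, of every tested gene in the 8 pathway lists (points, coloured by call at an adjusted p-value under 0.05), with the list median as a bar. All 15 SREBP1 fatty acid targets lie above 0, while LXR targets range from -1.46 to 1.41.

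Across 17 other ways of processing the counts, Mlxipl stayed above 0 in all 17 and was called in 15, and Srebf1 stayed below 0 in all 17 and was called in 15. Nr1h2 was below 0 in 17 and called in 13, and Nr1h3 was below 0 in 17 and called in 9. Srebf2 was above 0 in 17 and called in 2. Txnip was below 0 in all but 1 and called in 2. Mlxip, Mlx and Thrsp changed sign in some and were called in 0.

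**Figure D5:**
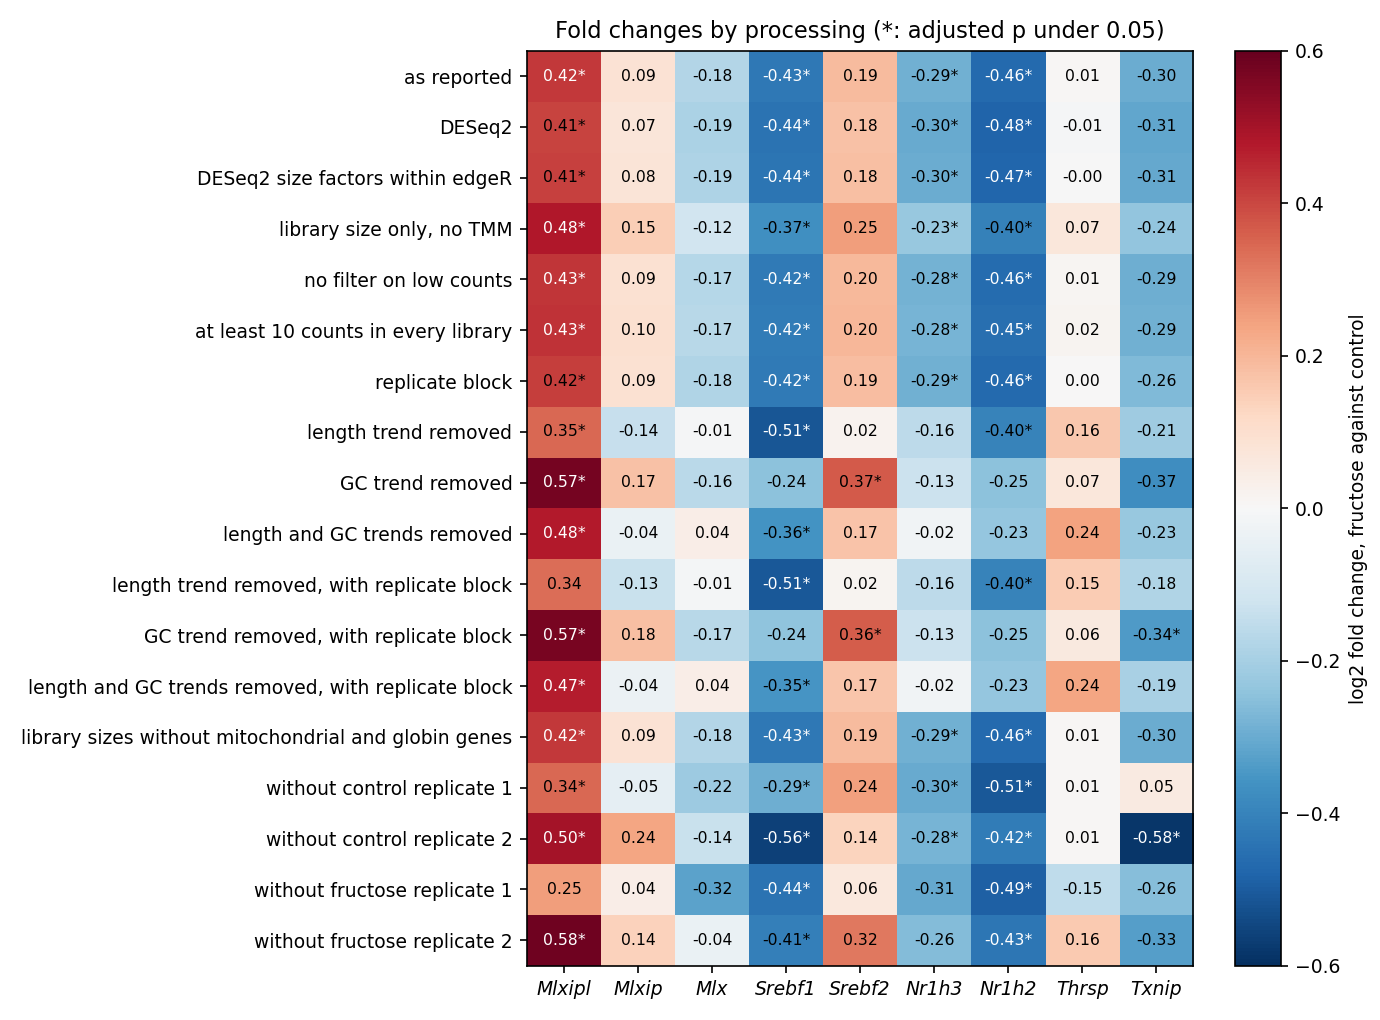
Log2 fold change, fructose against control, of each regulator (columns) under the reported fit and 17 alternatives (rows), with a star where the adjusted p-value was under 0.05. Mlxipl ranges from 0.25 to 0.58 and Srebf1 from -0.56 to -0.24, and Txnip spans 0.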

How the data were processed

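The authors filtered reads with Fastp, mapped them with Bowtie2 and Tophat to mm10, assembled and merged transcripts with StringTie and Cuffmerge, and deposited raw counts per gene, without normalization. The counting tool, its strand setting and its annotation release are not given in the sources used here. Counts in the 4 single-library tables and in the joint table were identical. Symbols, coordinates and exon-union lengths came from GENCODE M21 (GRCm38), which lacked 43 of the 22298 identifiers, and GC content from each gene's longest transcript. Genes kept by filterByExpr (12888) were tested with edgeR 4.0.16 in R 4.3.3 (TMM, quasi-likelihood test, two-sided, Benjamini-Hochberg over all tested genes, no covariate). The libraries' precision is limited by their number, and a gene with 0 counts could be at up to 0.127 to 0.162 CPM (3 counts of the total, counting error only). In simulated counts with the same spread for every gene and no length or GC trend, the test recovered 90% of 200 genes changed 2-fold. Among the 12888 genes there were 9 false calls. The deposited counts held such trends, and the 9 regulators changed less than 2-fold, so these rates do not carry over to them.

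The alternatives were DESeq2 1.42.0, DESeq2 size factors, library size only, no filter, a minimum of 10 counts per library, a block for replicate number, removal of length and GC trends (lowess, span 0.3, as offsets) with and without the block, library sizes without mitochondrial and globin genes, and each library left out. Whether the numbers 1 and 2 of the labels pair the libraries is not given in the sources used here. The members and lists were chosen with earlier results of these data known, so no p-value is adjusted over a list alone. Genes named from a list are its called genes with the highest level, at most 4, or the 2 highest where fewer than 2 were called. Klf10, Arrdc4, Mid1ip1 and the genes shared by the ChREBP and SREBP1 lists are outside this rule and were chosen after their values were seen. Protein sequences were not used here, and some genes that these rules select are not reported here.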

Additional observations from a re-analysis of the deposited data

How the results depend on the processing

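Over the 9 regulators, no call changed under DESeq2, its size factors, library size only, either filter, the replicate block alone or library sizes without mitochondrial and globin genes. The count called higher (1) was 2 with the GC trend removed, with or without the replicate block, and 0 with the length trend removed and the block. The count called lower (3) was 0 with the GC trend removed and 1 with that trend removed and the block, and 1 with both trends removed, with or without the block. Over all genes, 2001 were called higher and 1379 lower. The higher count was 1279 by DESeq2, 1271 with the length trend removed, 1091 with the GC trend removed, 700 with both removed, 1154 with the length trend removed and the block, and 934 with both removed and the block. The lower count was 859 under library size only, 853 once both trends were removed and 877 with the length trend removed and the block. With the replicate block alone the counts were 2117 and 1441. The deviations of same-numbered libraries from their group means had a correlation of -0.027. This shows no sign of a pairing, but with 2 libraries a group it cannot exclude 1. Of the distinct genes in the pathway lists, 39 were called higher and 9 lower. The higher count was 23 with the length trend removed, 17 with both trends removed and 24 with the length trend removed and the block, and the lower count was 4 with the GC trend removed. With each library left out in turn, where the lone library of a group is assumed to vary like the other group, the regulators called higher ranged from 0 to 1 and lower from 2 to 4, all genes called higher from 1207 to 2225 and lower from 485 to 1700, and list genes called higher from 25 to 42 and lower from 2 to 11. The sign reversed, each time in a value that was not called, for Mlxip (-0.14 with the length trend removed, -0.040 with both, -0.13 and -0.035 with the block, and -0.053 without control replicate 1, with a range of -0.053 to 0.24 over the libraries left out), Mlx (0.042 with both trends removed and 0.039 with the block), Thrsp (-0.0062 by DESeq2, -0.0018 with its size factors, -0.15 without fructose replicate 1, with a range of -0.15 to 0.16) and Txnip (0.054 without control replicate 1, with a range of -0.58 to 0.054, the lower end being called). The cause was not tested. The planned comparison of protein sequences was not run. With 2 libraries a group, values that were not called show only that no change was detectable at this depth and number.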

Other observations

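Genes whose profile over the 4 libraries lay nearest to that of each regulator were ranked by the Euclidean distance between log2 CPM profiles, each centred on its own mean, among 7809 other genes with a mean of at least 10 CPM. With 4 libraries and so many genes close profiles are to be found for any gene, and the distances are a description. Mlxipl lay nearest to Trak2 (distance 0.051, at 18.3 and 20.5 CPM in control and 29.8 and 22.5 CPM in fructose) and to Srl (0.053, at 23.3, 26.3, 37.2 and 30.7 CPM). Srebf1 lay nearest to Atp5e (0.013, at 474, 389, 324 and 314 CPM) and Rarres2 (0.018, at 57.3, 47.1, 39.0 and 38.7 CPM). Nr1h3 lay nearest to Smim20 (0.0065) and Ash2l (0.0074), and Nr1h2 to Mrpl53 (0.019) and H2-Ke6 (0.020). Mlx lay nearest to Ldha (0.022), which was at 3174 and 3352 CPM in control and 3175 and 2655 CPM in fructose, and to Cspg4 (0.026). Fbxo38 (0.014) was among the nearest to Mlxip, and Srebf2 lay nearest to Ehbp1l1 (0.052) and Tspan18 (0.053). Thrsp lay nearest to Mcm3 (0.050) and Fez2 (0.051). Txnip had the widest gap to its nearest genes, Mmd2 (0.074, at 76.4, 52.4, 52.4 and 53.8 CPM) and Cpxm1 (0.075, at 21.4, 13.9, 14.1 and 15.7 CPM), which were likewise highest in control library 1.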
